A study of Neurospora crassa with 112 samples.

Results

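The genes described here are the sulfur control and sulfate uptake genes of the filamentous fungus Neurospora crassa. They are 4 of the 9733 genes in the expression table and were taken by identifier: cys-3 (NCU03536), cys-14 (NCU04433), ars-1 (NCU06041) and scon-2 (NCU08563). The study sequenced polyA RNA from mycelia of 112 strains, each grown as a single culture to an age of 16 h on cellophane over Bird medium, a defined growth medium. The strains fall by name into 72 of a JW series and 40 whose names carry a D (10) or are bare stock-centre numbers (30), written here as FGSC numbers and called the D or FGSC series. All are natural isolates without an engineered allele or a treatment, apart from FGSC 2489, the laboratory strain, and the labels place all of them in Louisiana. In 4 cases an FGSC and a D column (4448 with D110, 4449 with D111, 4453 with D112, 4500 with D119) were nearly identical: the library totals were equal, 88.3% to 90.7% of genes had identical values and the 4 sulfur genes differed by at most 0.326%, less than read sampling alone would give. Each pair was therefore averaged and counted as 1 library. This left 72 libraries of the JW and 36 of the D or FGSC series. Each strain has 1 library, so that strain and culture cannot be told apart, and p-values measure the spread between strains.

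Neurospora takes up sulfate through permeases, activates it and reduces it to sulfide for cysteine and methionine synthesis. When preferred sulfur sources run short, CYS-3, a bZIP transcription factor, turns on a circuit of genes for scavenging and taking up sulfur, including cys-14, which encodes the sulfate permease that serves the mycelium, and ars-1, which encodes arylsulfatase, an enzyme that frees sulfate from aromatic sulfate esters. The brake on this circuit is scon-2, which encodes an F-box protein with WD repeats. As part of an SCF ubiquitin ligase it holds CYS-3 down when sulfur is ample. The series contains no sulfur treatment, so all values below are differences between strains on 1 medium.

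Expression is given as RPKM, the reads of a gene scaled by its length and by the library total, which allows levels of different genes to be set side by side. Whole read numbers could be recovered from the RPKM values, and library totals ranged from 4174767 to 30748165 reads, with a median of 19835136 in the JW and 11861308 in the D or FGSC series. At this depth cys-3 was covered by 935 to 18472 reads per library, cys-14 by 245 to 9156, scon-2 by 133 to 4885 and ars-1 by 1 to 1460. The mycelial marker hex-1 was not analysed here. Of 5 genes known for their expression in conidiation, the formation of asexual spores, con-8 ranged from 0.460 to 2366 RPKM with a median of 5.13 and con-6 from 23.9 to 23670 with a median of 180, and FGSC 4457 held the highest value of con-6, con-8, con-13 and eas.

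The order of the 4 genes by level was nearly the same in every strain. cys-3, the activator, was the most abundant, with a median of 286 RPKM, followed by cys-14 at 40.9, scon-2 at 14.05 and ars-1 at 0.396 RPKM. cys-3 lay above cys-14 in every library, cys-14 above scon-2 in all but 4, and scon-2 above ars-1 in all but 3. The exceptions were FGSC 4470, JW24, JW160 and JW234, in which the permease fell below scon-2, and FGSC 4463, FGSC 4486 and JW202, in which ars-1 exceeded scon-2. In FGSC 4486 alone ars-1 (35.7 RPKM) also exceeded cys-14 (19.7 RPKM). Across strains the ranges of neighbouring genes overlapped, those of cys-3 and cys-14 only at their ends. Every scon-2 level but that of FGSC 4452 (7.13 RPKM) lay within the range of cys-14, which began at 8.92 RPKM.

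**Figure D1:**
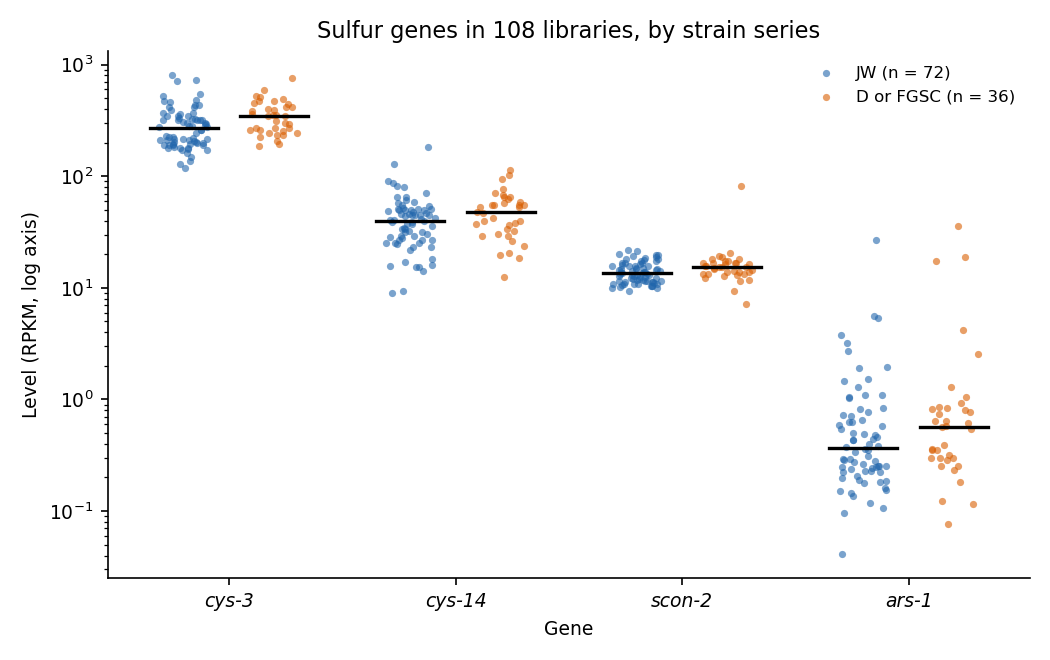
Level of each gene (RPKM, log axis) in 72 JW and 36 D or FGSC libraries; each point is 1 library and black bars are medians. The scon-2 points lie in a narrow band with FGSC 4457 alone far above it, and 4 ars-1 points lie above 10 RPKM.

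The 4 genes differed in how much they varied. The SD across all libraries of log2(RPKM + 1) was 0.93 for ars-1, 0.75 for cys-14, 0.57 for cys-3 and 0.37 for scon-2. The SD that read counting alone would give was 0.12, 0.04, 0.02 and 0.06 in the same order. Of the 7985 genes whose mean reached 1 RPKM, 90.8% had a smaller SD than ars-1, 84.8% than cys-14, 74.97% than cys-3 and 48.6% than scon-2. The permease gene cys-14 thus lay among the more variable genes of the table. The place of scon-2 near the middle included its highest library, without which its SD was 0.29. The place of ars-1 is no separate finding, because the few libraries that brought it past the minimum also raised its SD. ars-1 passed the minimum of 1 RPKM only through a few libraries: its mean was 1.62 RPKM over all libraries and 0.728 over the 104 libraries below 10 RPKM.

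For cys-3, the 72 JW libraries ranged from 117.5 RPKM (JW169) over a median of 268 to 812 RPKM (JW256). The 36 D or FGSC libraries ranged from 186 RPKM (FGSC 4496) over a median of 350 to 753 RPKM (FGSC 4463). The 8 libraries with the least cys-3 mRNA were all of the JW series, but the 2 series overlapped over most of their range. The highest and the lowest strain differed 6.92-fold. After JW256 and FGSC 4463 came JW27 at 733, JW202 at 720 and FGSC 4457 at 593 RPKM, and these 5 stood above the next library, JW233, at 542 RPKM.

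For cys-14, the JW libraries ranged from 8.92 RPKM (JW234) over a median of 40.03 to 182 RPKM (JW27). The D or FGSC libraries ranged from 12.5 RPKM (FGSC 4470) over a median of 47.4 to 113.5 RPKM (FGSC 4457). The series overlapped, and the permease spread more widely than its activator, with 20.4-fold between the highest and the lowest strain. JW27 was followed by JW202 at 129, FGSC 4457 at 113.5 and FGSC 4463 at 103 RPKM, all of which were also among the 5 highest for cys-3. The laboratory strain FGSC 2489 came next for cys-14, at 94.0 RPKM (rank 5), while its cys-3 level of 269 RPKM ranked 61. Expressed relative to cys-3 in the same library, cys-14 had a median of 13.8% and ran from 2.49% in JW234 to 38.3% in JW179. JW234 therefore combined the lowest permease level with a cys-3 level of 358 RPKM, which ranked 31.

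For ars-1, 86 libraries lay below 1 RPKM, 104 lay at or below 5.62 RPKM and 4 stood apart. The 4 were FGSC 4486 at 35.7 RPKM (exact Poisson 95% interval 33.9 to 37.6), JW202 at 26.8 (25.2 to 28.5), FGSC 4463 at 18.9 (17.6 to 20.3) and FGSC 4457 at 17.5 RPKM (16.4 to 18.7). At the other end, JW9 had a single ars-1 read, or 0.0414 RPKM (0.00105 to 0.230). These intervals cover counting error only. Without the 4, the 71 JW libraries had a mean of 0.747 ± 1.07 RPKM (SD) and the 33 D or FGSC libraries a mean of 0.687 ± 0.780 RPKM (SD). In 41 libraries ars-1 rested on fewer than 10 reads, so that differences among the lowest strains were not detectable at this depth.

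For scon-2, the JW libraries ranged from 9.41 RPKM (JW206) over a median of 13.5 to 21.6 RPKM (JW7). The D or FGSC libraries ranged from 7.13 RPKM (FGSC 4452) over a median of 15.4 to 82.6 RPKM (FGSC 4457). Apart from FGSC 4457 the range of the gene was narrow: all other libraries had a mean of 14.3 ± 2.999 RPKM (SD), and FGSC 4457 lay 5.90-fold above their median. The SD of log2(RPKM + 1) was 0.29 without FGSC 4457. In the same library cys-16 stood at 297 RPKM, 7.88-fold above the median of the others, con-6 stood 132-fold and con-8 462-fold above it. The part of the conidiation genes in the scon-2 level of FGSC 4457 was not tested. JW193, with the highest con-10 (3932 RPKM), had scon-2 at 10.53 RPKM. FGSC 4459 and FGSC 4469, which followed FGSC 4457 for con-6 at 8479 and 7179 RPKM, had scon-2 at 14.1 and 18.2 RPKM. Their con-8 levels were 110 RPKM in JW193, 52.5 in FGSC 4459 and 477 in FGSC 4469, against 2366 in FGSC 4457. None matched FGSC 4457 in con-8, so their scon-2 levels do not test the part of conidiation.

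**Figure D2:**
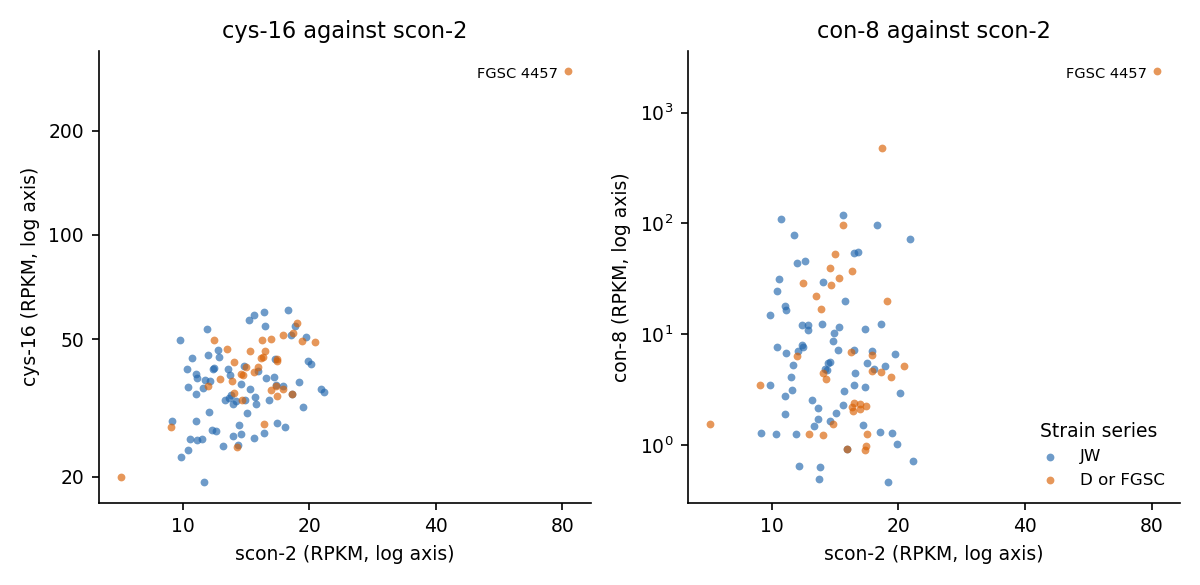
cys-16 (left) and con-8 (right) against scon-2 in all libraries, in RPKM on log axes and coloured by strain series; each point is 1 library. FGSC 4457, at 82.6 RPKM of scon-2, lies apart on all axes.

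The first comparison asked whether the 2 strain series differed in the sulfur genes. None of the 4 passed at an adjusted p of 0.05 in limma, fitted over all 7985 genes and adjusted by Benjamini-Hochberg, where 2.24% of all genes tested passed (179 genes). Mean cys-3 was 294 ± 138 RPKM (SD, n = 72) in the JW and 354 ± 125 RPKM (SD, n = 36) in the D or FGSC series, a log2 difference of -0.31 (SE 0.11, limma adjusted p = 0.106). Mean cys-14 was 43.3 ± 26.4 against 49.1 ± 23.4 RPKM, a log2 difference of -0.22 (SE 0.15, limma adjusted p = 0.436). All log2 differences were computed on log2(RPKM + 1), which understates those of a gene as low as ars-1.

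Mean ars-1 was 1.11 ± 3.25 RPKM in the JW and 2.63 ± 7.02 RPKM in the D or FGSC series, a log2 difference of -0.28 (SE 0.19, limma adjusted p = 0.430). Of the 4 libraries above 10 RPKM of ars-1, 3 were of the D or FGSC series. Without these 4 the mean was 0.747 RPKM in the JW and 0.687 RPKM in the D or FGSC series, the other way round. Mean scon-2 was 13.9997 ± 3.08 against 16.9 ± 11.6 RPKM, a log2 difference of -0.16 (SE 0.07, limma adjusted p = 0.201), and -0.10 without FGSC 4457 (limma adjusted p = 0.363). All 4 point estimates over all libraries were lower in the JW series. None was separated from the spread between strains once all genes were counted. The 95% intervals of these differences ran from -0.53 to -0.09 for cys-3, from -0.52 to 0.08 for cys-14, from -0.65 to 0.09 for ars-1 and from -0.31 to -0.02 for scon-2. The series also differed in sequencing depth. Over all libraries the Pearson r with the log2 library total was -0.04 for cys-3, -0.06 for cys-14, 0.15 for ars-1 and 0.09 for scon-2. Within the D or FGSC series it was 0.28, -0.12, 0.37 and 0.24, and within the JW series -0.07, 0.09, 0.05 and 0.13. With the log2 library total as a covariate the difference of ars-1 moved by over 1.5 times, to -0.47 (limma adjusted p = 0.308), and those of cys-3, cys-14 and scon-2 were -0.35, -0.22 and -0.23 (limma adjusted p = 0.173, 0.640 and 0.167).

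The second comparison asked which genes followed the level of the activator from strain to strain. Of the other sulfur genes, cys-14 and ars-1 had positive slopes on log2 cys-3 that passed the test and scon-2 did not, in limma with the strain series as a covariate over 7984 genes, of which 7.34% passed with a positive slope and 12.9% in either direction. The permease changed by 0.73 on the log2 scale per doubling of cys-3 (SE 0.11, 95% interval 0.52 to 0.95, limma adjusted p = 4.62e-07), that is 1.66-fold. Arylsulfatase changed by 0.78 per doubling (SE 0.14, 95% interval 0.50 to 1.06, limma adjusted p = 4.01e-05). This gene reached the minimum of 1 RPKM only through its 4 high libraries (no filter: slope 0.78, limma adjusted p = 4.73e-05). Its slope ran from 0.35 to 2.01 over the alternative settings, so its size depended on the processing, and 0.78 holds for log2(RPKM + 1) only. scon-2 had a slope of 0.05 (SE 0.06, 95% interval -0.08 to 0.17, limma adjusted p = 0.682), an interval that ended below the lower bound of the permease. Ranked by Pearson r with cys-3 among 7984 genes, cys-14 was in place 6, ars-1 in place 12 and scon-2 in place 2308.

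Seen as a correlation, cys-3 and cys-14 had a Pearson r of 0.56 and a Spearman rho of 0.54 over all libraries (both p = 1e-05, the smallest that 100000 two-sided permutations can give). Within the JW series r was 0.54 (permutation p = 1e-05) and within the D or FGSC series 0.57 (permutation p = 0.0002). Leaving out JW256 and FGSC 4463, the libraries farthest from the median of cys-3, gave 0.55. The relation of these 2 genes was therefore seen in both series and without those 2 libraries. Within the 104 libraries below 10 RPKM of ars-1, r was 0.50 (permutation p = 1e-05), and 0.46 without JW256 and JW27. In the 33 D or FGSC libraries of that set it was 0.43 (permutation p = 0.013). The 6 relations among the 4 genes were all computed, and the p-values adjusted over all genes are those of the slopes.

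Because ars-1 falls into 2 clusters, its correlation with cys-3 was taken within the 104 libraries below 10 RPKM, where r was 0.50 and rho 0.51 (both permutation p = 1e-05) and r was 0.40 without JW256 and JW27. Within this cluster r was 0.58 in the 71 JW libraries (permutation p = 1e-05) and 0.26 in the 33 D or FGSC libraries (permutation p = 0.139), so the relation was not shown within the second series by itself. Between cys-3 and scon-2 r was 0.12 over all libraries (permutation p = 0.209) and 0.01 without FGSC 4457 (permutation p = 0.887). The difference between the series in the slope on cys-3 was tested as an interaction in limma, and passed for none of 7984 genes (0%; 770 had an unadjusted p under 0.05, and limma-voom on the recovered reads called 7). For cys-14 it was -0.13 (SE 0.25, limma adjusted p = 0.875), for ars-1 -0.01 (SE 0.33, limma adjusted p = 0.996) and for scon-2 -0.25 (SE 0.15, limma adjusted p = 0.565).

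**Figure D3:**
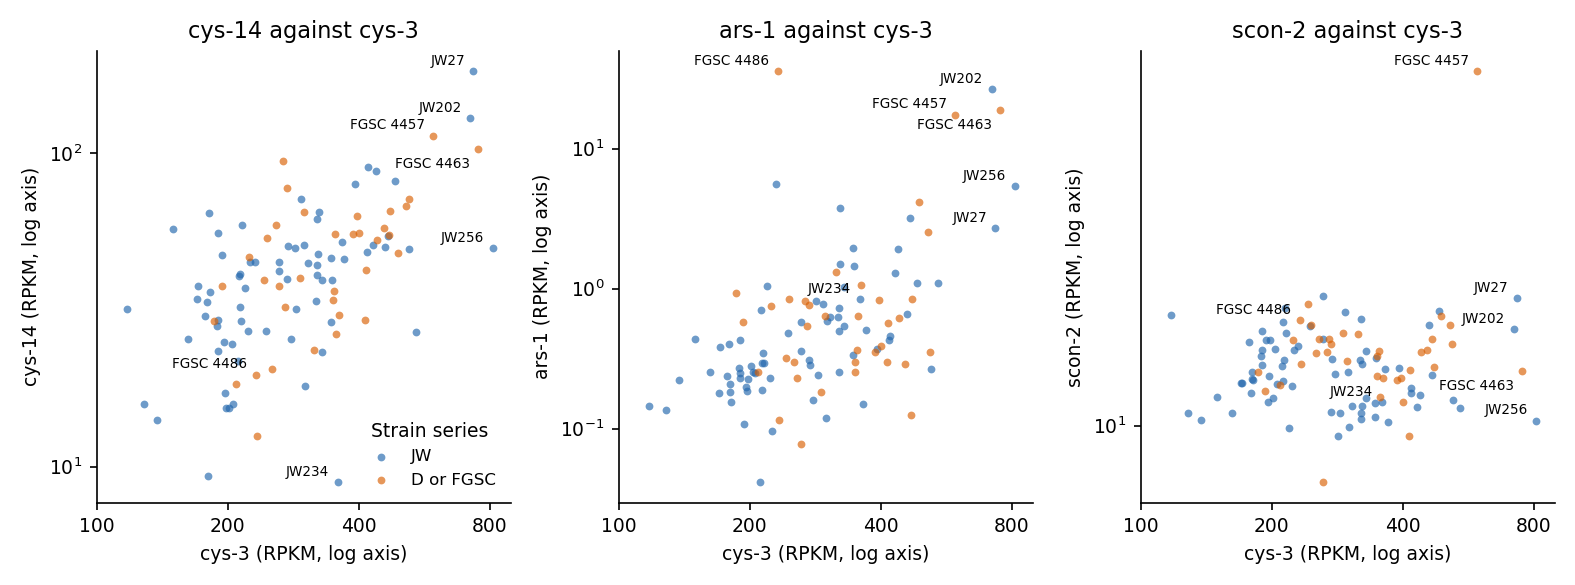
Levels of cys-14, ars-1 and scon-2 against cys-3 in all libraries (RPKM, log axes), coloured by strain series, with 7 libraries named. cys-14 and ars-1 climb with cys-3, scon-2 stays level, and FGSC 4486 lies off the trend of ars-1, at 35.7 RPKM with a cys-3 level of 232 RPKM.

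The same was asked of the level of each effector. On log2 cys-14, where 1.65% of 7984 genes passed with a positive slope and 3.88% in either direction, ars-1 had a slope of 0.42 (SE 0.11, limma adjusted p = 0.0186), but 0.22 with a pseudocount of 5 RPKM (limma adjusted p = 0.0517). Within the 104 libraries below 10 RPKM of ars-1 the Pearson r of the 2 genes was 0.33 and rho 0.37 (permutation p = 0.00078 and 0.00023). It was 0.37 in the JW libraries (permutation p = 0.0015), 0.23 in the D or FGSC libraries (permutation p = 0.199), and 0.31 without JW27 and JW234. The slope of scon-2 on log2 cys-14 was 0.14 (SE 0.05, limma adjusted p = 0.0613), with r of 0.31 over all libraries (permutation p = 0.00165) and 0.24 without FGSC 4457 (permutation p = 0.0117). This slope passed after median centring (0.15, limma adjusted p = 0.0293), after quantile normalization (0.16, 0.0141) and with limma-voom (0.15, 0.0413).

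On log2 ars-1, where 6.66% of genes passed with a positive slope and 8.22% in either direction, all of the other 3 sulfur genes passed. The slope was 0.29 for cys-3 (SE 0.05, limma adjusted p = 5.88e-05), 0.27 for cys-14 (SE 0.07, limma adjusted p = 0.0102) and 0.12 for scon-2 (SE 0.04, limma adjusted p = 0.0224). FGSC 4457 decided the call of scon-2: without this library its slope was 0.04 (limma adjusted p = 0.474). Without it the slope of cys-14 was 0.25, at a limma adjusted p of 0.0507, and the number of genes passing fell from 656 to 233. Between ars-1 and scon-2 within the 104 libraries r was 0.04 (permutation p = 0.654).

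The 4 libraries with high ars-1 were not alike in the rest of the circuit. In FGSC 4457, FGSC 4463 and JW202 the ars-1 levels of 17.5, 18.9 and 26.8 RPKM came with cys-3 levels of 593, 753 and 720 RPKM and cys-14 levels of 113.5, 103 and 129 RPKM, all within the top 5 for both genes. In FGSC 4486, with the highest ars-1 of all, cys-3 was at 232 RPKM (rank 71) and cys-14 at 19.7 RPKM (rank 97). JW27 and JW256 were among the 5 highest for cys-3 but not among the 4 high ars-1 libraries. With cys-3 at 733 and 812 RPKM, their ars-1 levels were 2.72 and 5.42 RPKM, and the cys-14 level of JW256 was 49.6 RPKM, which ranked 38. Among the 10 highest libraries of each gene, FGSC 4457, FGSC 4463, JW27 and JW202 were shared by cys-3, cys-14 and ars-1.

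The genes most like ars-1 across all libraries, by Pearson r of log2(RPKM + 1), were NCU05887 (0.75), NCU07819 (0.74), NCU07610 (0.72), NCU05888 (0.70) and NCU05884 (0.68), none of which carries a gene symbol in the reference table. NCU05884, NCU05887 and NCU05888 lie in 1 neighbourhood of the genome. Over the 104 libraries below 10 RPKM of ars-1 these r were 0.77, 0.51, 0.59, 0.75 and 0.59, so each stayed positive there. Spearman rho over all libraries was 0.69, 0.50, 0.39, 0.67 and 0.54 in the same order. NCU05887, NCU07819 and NCU05884 had medians of 0.907, 0.335 and 0.536 RPKM, below the minimum of 1 RPKM set on the mean. Whether they reach it without the 4 high libraries was not tested, so the r within the 104 are no separate support. The genes of this and the following lists were picked by r in these same libraries, so their r are no independent test.

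NCU05887 had a median of 0.907 RPKM and stood at 70.6 in FGSC 4457, 53.1 in FGSC 4463, 45.1 in JW202 and 34.3 in JW27. In FGSC 4486 it was at 0.814 RPKM (rank 58). NCU07819, with a median of 0.335 RPKM, stood at 61.7, 75.1 and 72.6 RPKM in FGSC 4457, FGSC 4463 and JW202, and at no more than 5.70 RPKM in any other library, FGSC 4486 (0.730) and JW27 (0.886) included. NCU07610 was highest in JW202 (242 RPKM) and FGSC 4457 (153). None of the 5 genes stood apart in FGSC 4486, the library with the highest ars-1: NCU07819 ranked 23 there, NCU07610 (1.91 RPKM) 29, NCU05888 (1.26 RPKM) 75 and NCU05884 (0.276 RPKM) 84.

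**Figure D4:**
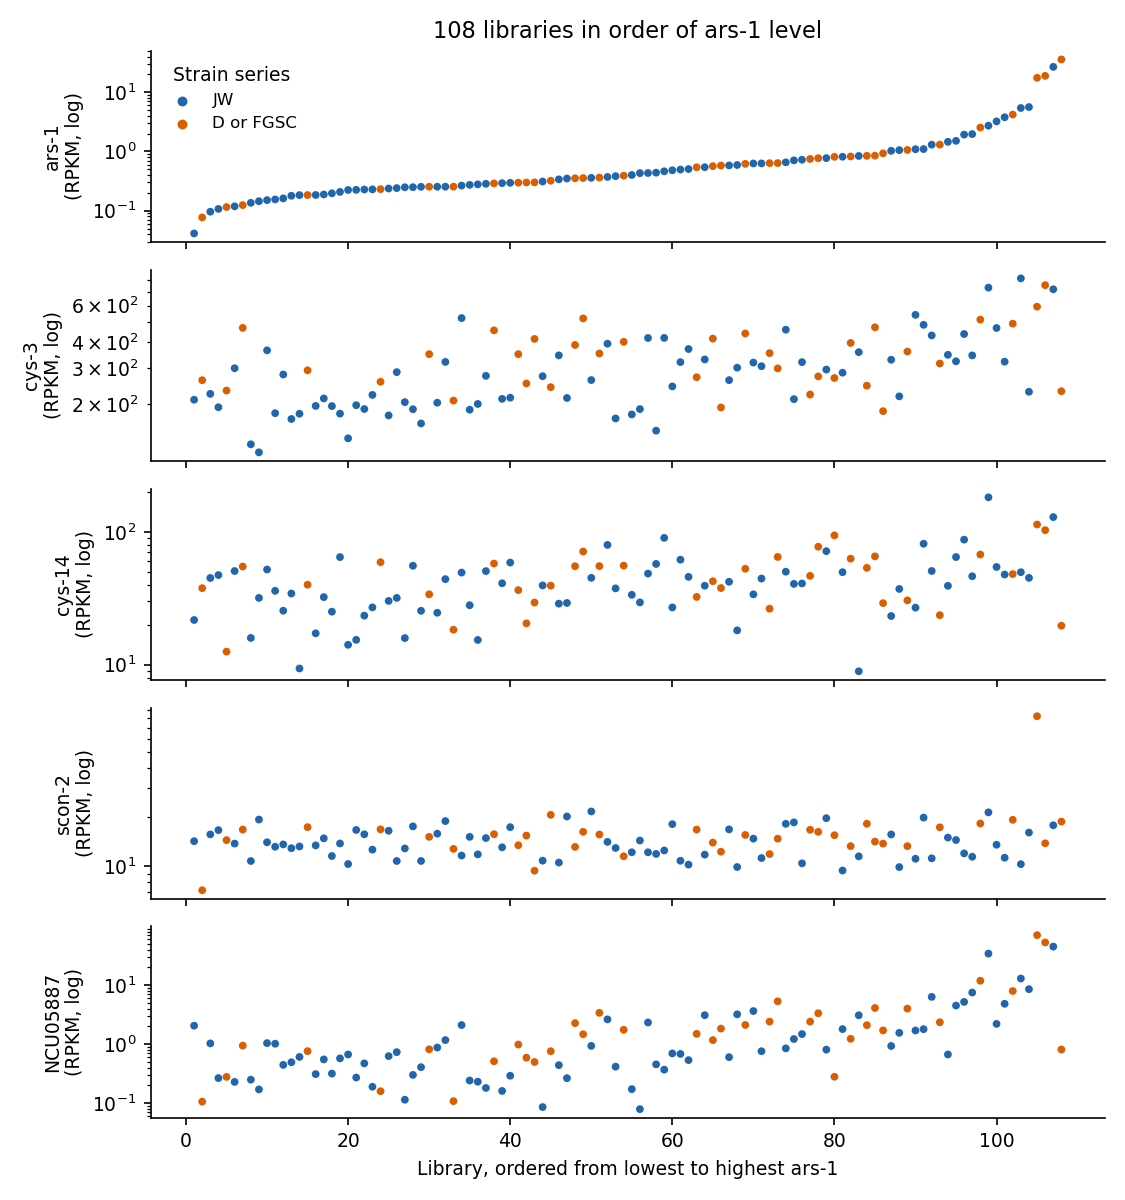
All libraries ordered from lowest to highest ars-1, with the levels of ars-1, cys-3, cys-14, scon-2 and NCU05887 (RPKM, log axes) in 5 panels coloured by strain series. At the right end the last library, FGSC 4486, drops back in cys-3, cys-14 and NCU05887 while the 3 before it are high in each.

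The genes most like cys-3 were NCU03535 (r of 0.73), NCU05888 (0.67), NCU05887 (0.66), NCU01057 (0.63) and NCU08880 (0.61). NCU03535 is the direct neighbour of cys-3, and the annotated spans of the 2 genes overlap in the NC12 assembly. No source used here gives the strand setting of the read counts, so reads of the 2 genes may not be told apart and their likeness is uncertain. NCU05887 and NCU05888 were thus on the lists of both the activator and arylsulfatase. NCU01057, with a median of 10.49 RPKM, reached 372 in FGSC 4457 and 308 in FGSC 4463 against 1.09 RPKM in its lowest library. None of these r fell below 0.56 over the 104 libraries.

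The genes most like cys-14 were NCU05029 (r of 0.64), cys-3 (0.56), NCU04942 (0.53), cys-11 (0.51) and NCU05887 (0.50). Over the 104 libraries below 10 RPKM of ars-1 these r were 0.62, 0.50, 0.46, 0.53 and 0.39. cys-11 encodes ATP sulfurylase, the enzyme that activates the sulfate brought in by the permease. It ranged from 217 RPKM in JW160, the library with the second-lowest cys-14, to 781 RPKM in FGSC 4469, with a median of 471. JW234, the lowest library of cys-14, was also the lowest of NCU05029, at 12.03 RPKM against a median of 27.7.

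The genes most like scon-2 were cys-16 (r of 0.64), NCU08772 (0.59), NCU02750 (0.59), NCU07495 (0.59) and NCU08600 (0.58), all of which had their highest value in FGSC 4457. Without that library the same r were 0.40, 0.34, 0.43, 0.32 and 0.43. For cys-16 r was 0.29 in the JW and 0.88 in the D or FGSC series, the one that holds FGSC 4457. No member of the circuit was among the 5. By Pearson r over all libraries ars-1 was in place 344 of 7984 (0.33) and cys-14 in place 452 (0.31), but Spearman rho was 0.07 for ars-1 and 0.25 for cys-14, and without FGSC 4457 r was 0.14 and 0.24.

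The other genes of sulfur metabolism were followed as a list of 15, namely all further genes with a cys, met, scon or eth symbol in the reference table. Between the series 0 of the 15 passed in limma, beside the 2.24% of all genes tested, and their median log2 difference was -0.07 against 0.00 over all genes. The 4 with the smallest p were cys-16, at -0.23 (SE 0.09, limma adjusted p = 0.134), scon-3, at 0.12 (SE 0.05, limma adjusted p = 0.163), cys-2, at -0.15 (SE 0.07, limma adjusted p = 0.240) and cys-9, at -0.10 (SE 0.05, limma adjusted p = 0.279). scon-3 encodes the SKP1 homolog that joins SCON-2 in the ubiquitin ligase. It ranged from 285 RPKM in FGSC 2489 and 401 in FGSC 1693, with the next library at 622, to 1249 RPKM in JW234.

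On the level of cys-3 again 0 of the 15 passed, beside 12.9% of all genes, with a median slope of 0.04 against 0.02 over all genes, although 10 of the 15 slopes were above 0. The steepest were those of cys-11, at 0.15 (SE 0.06, limma adjusted p = 0.0688), and eth-1, the gene of S-adenosylmethionine synthetase, at 0.11 (SE 0.05, limma adjusted p = 0.151). Slopes of cys-9, which encodes thioredoxin reductase, and scon-3 were 0.07 (limma adjusted p = 0.279) and 0.06 (limma adjusted p = 0.366). cys-11 and eth-1 did pass after median centring (0.20 and 0.19, limma adjusted p = 0.0267 and 0.0328) and after quantile normalization (0.20 and 0.17, limma adjusted p = 0.0182 and 0.0214). The slopes of the list were shallow beside the 0.73 of cys-14. They were also below the 0.78 of ars-1, a slope that ran from 0.35 to 2.01 over the alternative settings.

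On the level of cys-14, 3 of the 15 passed with a positive slope, beside 1.65% of all genes, and 0 with a negative one. 14 of the 15 slopes were above 0, and their median was 0.08 against 0.00 over all genes. The 3 were cys-11 at 0.23 (SE 0.04, limma adjusted p = 7.16e-05), eth-1 at 0.15 (SE 0.04, limma adjusted p = 0.0159) and cys-9 at 0.11 (SE 0.03, limma adjusted p = 0.0231). The slope of scon-3 was -0.05 (limma adjusted p = 0.406), the only negative value of the list. The count was 7 of 15 after median centring and after quantile normalization, and 5 with the mean level of 5 conidiation genes as a covariate. It was 2 without FGSC 2489, JW168, JW5 and JW7, where cys-9 lost its call (slope 0.10, limma adjusted p = 0.0535). JW234 and JW160, lowest in cys-14, were also lowest in several listed genes. JW160 was lowest in cys-11, eth-1, met-8 and cys-18, and JW234 in cys-4, cys-12 and met-5. The other listed genes were lowest elsewhere, and scon-3 was highest in JW234. No fit left out JW160 and JW234. On the level of ars-1, 1 of the 15 passed, beside 6.66% of all genes with a positive slope and 8.22% in either direction (cys-16, slope 0.15, SE 0.04, limma adjusted p = 0.0193), and without FGSC 4457 this slope was 0.05 (limma adjusted p = 0.437). The call was also lost after median centring, after quantile normalization and with the library total as a covariate (limma adjusted p = 0.0687, 0.0867 and 0.0537).

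**Figure D5:**
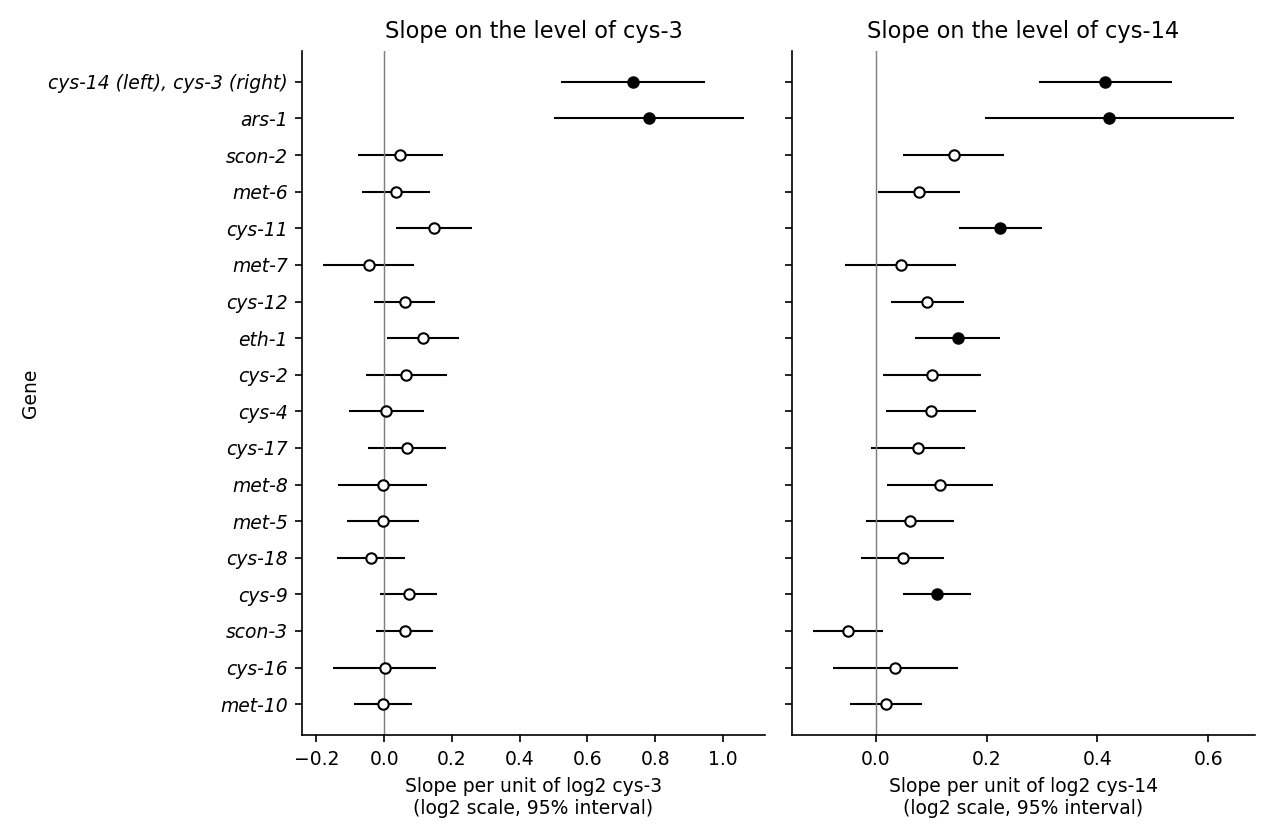
Slopes of the sulfur genes and the 15 listed genes on log2 cys-3 (left) and log2 cys-14 (right), on the log2 scale with 95% intervals over all libraries; filled points passed a limma adjusted p of 0.05. On the left only cys-14 and ars-1 are filled, and on the right cys-3, ars-1, cys-11, eth-1 and cys-9.

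The 5 conidiation genes were set beside these slopes as markers of another stage of development. On log2 cys-3, 1 of the 5 passed, beside 12.9% of all genes, con-8 with a slope of 1.06 (SE 0.31, limma adjusted p = 0.0138), which was 0.75 without FGSC 4457, FGSC 4463, FGSC 4486 and JW202 (limma adjusted p = 0.101). On log2 ars-1, 3 of the 5 passed, beside 8.22% of all genes: con-8 at 1.02 (limma adjusted p = 1.72e-05), con-13 at 0.52 (limma adjusted p = 0.00586) and con-10 at 0.71 (limma adjusted p = 0.0253). FGSC 4457, which ranked 4 for ars-1, ranked 1 for con-8 and con-13 and 2 for con-10. Without this library the genes passing on ars-1 fell from 656 to 233, and these 3 slopes without it are not given here. On log2 cys-14, 0 of the 5 passed, beside 3.88% of all genes. With the mean log2 level of the 5 as a covariate the slope of cys-14 on cys-3 was 0.74 (limma adjusted p = 7.07e-07) and that of ars-1 on cys-3 0.70 (limma adjusted p = 0.000176), so both remained past the threshold. The slope of scon-2 on ars-1 was then 0.10 (limma adjusted p = 0.220).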

How the data were processed

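The authors deposited 1 table of RPKM values for 9733 genes and 112 strains. The submitters' processing notes name Bowtie 0.12.2. No source used here gives the counting tool, strand setting or annotation release. From the RPKM values, whole reads, library totals and gene lengths were recovered (all 9696 genes above 0 were whole within 0.001 reads), and the method was tested on simulated data. Symbols came from the NC12 RefSeq table, which matched 8914 of 9733 identifiers. RPKM counts reads against each library total, so a few very abundant genes can lower all others.

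Values were analysed as log2(RPKM + 1) for genes whose mean reached 1 RPKM, with limma 3.58.1 (R 4.3.3) and Benjamini-Hochberg adjustment over all genes. Regressions on the level of 1 gene had the strain series as a covariate. The named genes were the 4 sulfur genes, the 4 listed genes of smallest p between series and on cys-3, and the 5 genes of highest Pearson r with each sulfur gene. Members and lists were chosen with earlier results of these data known. Permutation tests drew 100000 permutations and were two-sided. The labels give no collection site or sequencing batch for each library. All columns were used. The alternatives were pseudocounts, filters, scalings, a depth covariate, strains left out, unmerged columns and limma-voom on recovered reads, and 3 more were chosen after seeing the data.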

Additional observations from a re-analysis of the deposited data

How the results depend on the processing

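Under 13 alternative settings, 331 of 369 values of single genes kept their direction and side of the threshold. The levels and SDs of the sulfur genes were recomputed only with median centring and without FGSC 2489, JW168, JW5 and JW7. All 16 values stayed within 1 SD, which is a wide limit, and median centring cannot move a mean level. The slopes of cys-14 and ars-1 on cys-3 passed in every setting in which they could be fitted (limma adjusted p at most 4.67e-05 and 0.00103). In size, that of cys-14 ran from 0.65 to 0.77 and that of ars-1 from 0.35 to 2.01. ars-1 was not tested as an outcome with a minimum of 5 RPKM or without the 4 high ars-1 libraries, where its mean falls under the filter. The share of tested genes that passed moved by over 1.5 times as follows, and the cause was not tested. Between series, 2.24% became 4.13% with quantile normalization, 0.388% with the library total as a covariate, 3.83% without FGSC 2489, JW168, JW5 and JW7, 3.62% with unmerged columns and 1.35% with limma-voom. On cys-14, 3.88% became 7.23% with median centring and 10.9% with quantile normalization. On ars-1, 8.22% became 4.58%, 2.66% and 4.06% with median centring, quantile normalization and the library total. Of the settings chosen after seeing the data, leaving out FGSC 4457, FGSC 4463, FGSC 4486 and JW202 gave 4.71% between series, 2.05% on cys-14 and 3.79% on ars-1, leaving out FGSC 4457 gave 2.92% on ars-1, and the conidiation covariate gave 6.60%, 6.06% and 1.48%.

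Calls moved between higher and lower genes with the scaling. Genes higher in the JW series were 93 of 179 calls and 127 of 330 after quantile normalization, positive slopes on cys-14 132 of 310 and 556 of 868, and positive slopes on ars-1 532 of 656 and 123 of 212. Of the sulfur genes, scon-2 turned direction on cys-3 without the 4 libraries (-0.0234) and without FGSC 4457 (-0.0132). The interaction of cys-14 turned to 0.0254 without the 4 libraries. That of ars-1 turned to 0.29 with a pseudocount of 0.1 RPKM, 0.10 with median centring, 0.13 with quantile normalization, 0.16 with the library total, 0.0371 with unmerged columns, 0.28 without FGSC 4457 and 0.0849 with the conidiation covariate. None of these values passed the threshold. The interaction passed for 0 genes, and for 7 (0.0877%) with limma-voom. With the conidiation covariate scon-3 (0.15, limma adjusted p = 0.0403) and cys-2 (-0.20, limma adjusted p = 0.0363) passed between series. No paired analysis was possible because the labels give no replicate numbers and each strain has 1 library.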
